A study of Rattus norvegicus with 20 samples.

Results

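The interferon response genes were taken as every row of the deposited array table that carried a single gene symbol of a set form. The symbols began with Ifi followed by a digit or t, with Irf, Gbp, Stat, Mx or Isg followed by a digit, or with Oas, or were Rsad2, Usp18, Ifih1, Ddx58 or Rigi. This gave 51 rows and, with the brightest row kept per gene, 50 of the 14557 genes tested. Irf2bp1, Irf2bpl and Isg20l2 entered by their letters only, and Ifitm2-ps2 is the name of a pseudogene. Mx2, Oas1a and Gbp2 had no row with their symbol alone and were not analysed here. RNA of the red tibialis anterior, the oxidative portion of a muscle of the lower hindlimb, was measured on 20 arrays of male ZDF rats with the strain label Zucker. There were 5 arrays in each of 4 groups, namely lean control rats on standard chow, obese rats on a stock diet, rosiglitazone rats and resveratrol rats. Rosiglitazone is an agonist of the nuclear receptor PPARgamma, and resveratrol is a plant polyphenol. All rats were caged singly under a reversed light cycle, and no group carried a transgene or a deletion that the labels name. Obese ZDF rats lack a functional leptin receptor and develop diabetes. The labels state no dose, duration, diet or genotype for the rats given either compound, and obese rats were used as their reference because the experiment is described as treatment of diabetic rats.

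Interferons are secreted when a cell senses viral or misplaced nucleic acid. Their receptors signal through JAK kinases to STAT factors, which with Irf9 bind the interferon-stimulated response element of target genes, or as STAT dimers bind the gamma-activated site. The targets include the 2'-5' oligoadenylate synthetases, which make the second messenger that activates RNase L, the guanylate-binding proteins and Mx GTPases, the Ifit and Ifitm proteins and the ubiquitin-like Isg15, and the interferon regulatory factors (IRFs) both start and sustain the response. Several STAT factors serve other signals, Stat3 those of the interleukin-6 family, Stat5a and Stat5b those of growth hormone and prolactin, and Stat6 those of interleukin-4 and interleukin-13.

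Values are log2 signals as deposited. The median of an array lay between 2.46 and 2.55, and every comparison used the spread of all 20 arrays. Of the 50 genes, 34 had all 4 group means below 4 and are called dim here, 16 had at least 1 group mean of 4 or more, and 9 lay below the array median on every array, where signal above background was not shown. Skeletal muscle markers summed to an unlogged signal of 14270 to 15780 on every array, whereas 12 of 14 measured macrophage and leukocyte markers were dim. In whole muscle, fewer cells of a type and less RNA per cell cannot be told apart.

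Promoters were read to show which genes carry the letters that interferon-activated factors bind. RefSeq promoters of the GRCr8 build, 250 bases before to 50 after a start site, were found for 40 of the 50 genes, with 41 promoters in all. The core of the interferon-stimulated response element, GAAA followed after any 2 bases by a second GAAA and searched on both strands, stood in 16 of 41 (39%) against 1312 of 33469 promoters overall (3.92%). The gamma-activated site TTCNNNGAA, which reads the same on both strands, stood in 9 of 41 (22%) against 2970 overall (8.87%). Both were present for 4 genes, and no match of one overlapped a match of the other. The 6 stretches below are of genes described later that hold the core. Of these only Rsad2 was called in a comparison, and other genes with the core are not shown. The stretches run from 5′ to 3′ along the gene's strand, and capitals mark the core or its reverse complement. They lie at chr6:48788233-48788292 (minus strand), chr2:234072270-234072335 (plus), chr6:128355203-128355262 (plus), chr12:41395871-41395936 (minus), chr1:205800058-205800117 (minus) and chr1:241527257-241527316 (plus). The capitals began 147, 136, 84, 53, 69 and 44 bases before the start in that order, counting for Gbp1 and Oas1b from the second of 2 overlapping matches. A further match of Gbp1 and of Ifi27, farther from the start, is not shown. By RefSeq's gene spans the Gbp1 and Irf7 stretches lie inside their genes, those of Rsad2 and Oas1b overlap the 5′ end, and those of Ifi27 and Ifit3 lie upstream.
Rsad2: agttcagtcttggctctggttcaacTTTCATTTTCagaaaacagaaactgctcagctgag
Gbp1: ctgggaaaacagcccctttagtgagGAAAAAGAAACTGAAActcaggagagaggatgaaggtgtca
Ifi27: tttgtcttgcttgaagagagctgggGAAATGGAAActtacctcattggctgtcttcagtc
Oas1b: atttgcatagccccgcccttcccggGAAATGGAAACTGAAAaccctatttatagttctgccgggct
Irf7: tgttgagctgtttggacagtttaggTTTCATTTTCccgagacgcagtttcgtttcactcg
Ifit3: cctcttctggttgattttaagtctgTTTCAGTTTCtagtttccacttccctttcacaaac

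The Stat6, Stat3 and Stat5a promoters held neither motif in this window, and Oas1k had no entry. In Oas1b and Gbp1 the GAAA blocks follow one another at the same spacing, giving overlapping matches. A match is a run of letters and not a measured site.

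The first question was whether red muscle of obese rats differs from lean control muscle in these genes. At an adjusted p under 0.05 in limma, none of the 50 was called, against 0.00687% of all genes, and 6 of 50 (12%) had an unadjusted p under 0.05, against 10.8% of all genes. The median log2 fold change of the 50 was -0.03, with 18 positive (36%), and that of all genes -0.01, with 48.27% positive. With resveratrol against obese, none was called (0% of all genes), and 6 of 50 (12%) had an unadjusted p under 0.05 against 7.41% of all genes. The median was -0.08 with 16 positive (32%), beside 0.0016 with 50.44% positive over all genes. The 95% interval around a member's estimate extended 0.32 log2 units to each side at the median, so a smaller difference in a typical single gene could not be told from 0 even before adjustment.

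With rosiglitazone against obese, 1 of 50 was called, Stat6, which was higher. The background was 1.94% of all genes, made up of 1.46% higher and 0.474% lower. An unadjusted p under 0.05 was found for 9 of 50 (18%) against 13.6% of all genes. The median was -0.03 with 22 positive (44%), beside -0.0048 with 48.98% positive over all genes. The 2 treatments were also compared with each other, in the same fit to all 20 arrays. There again Stat6 alone was called, against 2.04% of all genes (1.44% higher, 0.605% lower), and 11 of 50 (22%) had an unadjusted p under 0.05 against 13% of all genes. The median was 0.05 with 27 positive (54%), beside -0.0044 with 48.97% positive over all genes.

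With rosiglitazone against lean control, Rsad2, Oas1k and Stat6 were called, all higher, or 3 of 50 (6%) against 3.5% of all genes (1.67% higher, 1.83% lower). An unadjusted p under 0.05 was found for 16 of 50 (32%) against 15.9% of all genes, and of the 16, 10 were lower and 6 higher. The median was 0.02 with 26 positive (52%), beside -0.0029 with 49.47% positive over all genes. With resveratrol against lean control none was called (0.0137% of all genes), and 9 of 50 (18%) had an unadjusted p under 0.05 against 8.63%. The median was -0.07 with 20 positive (40%), beside -0.0053 with 48.68% positive over all genes. These comparisons share groups of arrays, so their results are not separate evidence. With the treated rats taken as obese, a treated group differs from lean control both in the compound and in the obese state, and its diet is not stated. Compound, obese state and any difference in diet cannot be told apart in a comparison of a treated group with lean control. Obese and lean control rats also carried different diet labels, a stock diet and standard chow. For obese against lean control, obese state and diet therefore cannot be told apart. The mean of the 16 genes that were not dim lay between 4.95 and 5.14 over the lean control arrays and 4.84 and 5.10 over the obese. It lay between 4.68 and 5.02 over the resveratrol and 4.88 and 5.16 over the rosiglitazone arrays, and these ranges overlapped. A mean of 4 or more in any 1 group was enough to enter this set, so the choice of genes bears on these levels. Ifi30 entered through lean control alone and Isg20l2 through rosiglitazone alone.

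**Figure D1:**
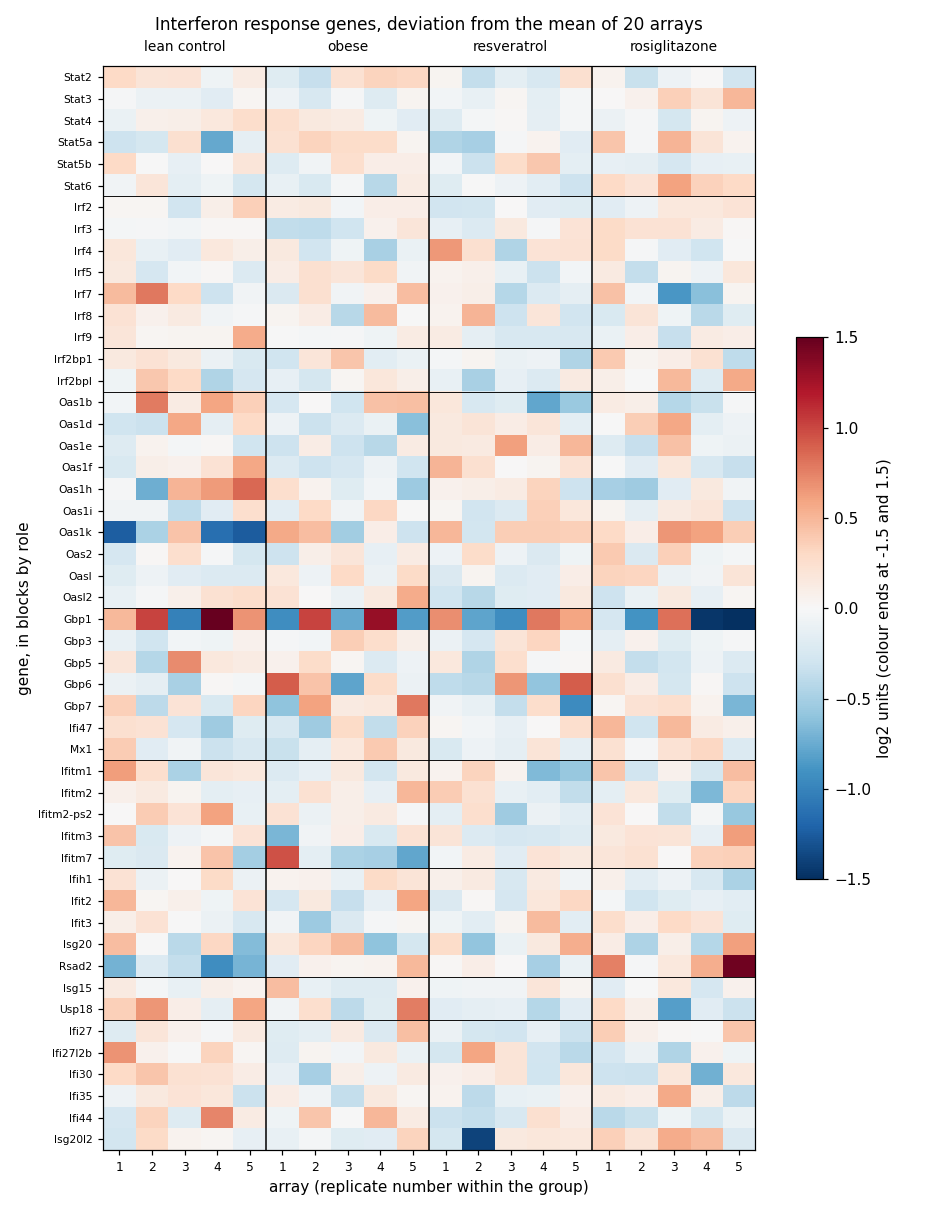
Deviation of each interferon response gene (rows, in blocks by role) from its mean over 20 arrays (columns, by group), in log2 units, red above and blue below. Single rows stand out rather than blocks, with Stat6 red in all 5 rosiglitazone columns and Rsad2 in 4 of them, Oas1k blue in 4 of the 5 lean control columns, and Gbp1 in strong red or blue within every group.

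Among the 6 STAT factors, Stat6 (row 17828700, GRCr8 chromosome 7, 65365505 to 65382825), the factor of interleukin-4 and interleukin-13 signalling, was higher with rosiglitazone than in each other group. Stat6 read 4.38, 4.62, 4.29, 4.37 and 4.16 in lean control and 4.32, 4.20, 4.40, 4.01 and 4.55 in obese muscle. It read 4.25, 4.42, 4.36, 4.28 and 4.12 with resveratrol and 4.73, 4.63, 5.04, 4.78 and 4.73 with rosiglitazone. All 5 rosiglitazone values lay above the highest value of every other group, and the other 3 groups overlapped. The mean with rosiglitazone was 4.78 (SD 0.15, n = 5) against 4.30 (SD 0.20) in obese, 4.29 (SD 0.11) with resveratrol and 4.36 (SD 0.17) in lean control muscle. Against obese the log2 fold change was 0.49 (SE 0.11, adjusted p = 0.0216), or 1.40-fold (95% interval 1.19 to 1.64). Against resveratrol it was 0.50 (adjusted p = 0.0187) and against lean control 0.42 (adjusted p = 0.0381). Resveratrol differed from obese by -0.01 (95% interval -0.24 to 0.22).

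The call for Stat6 was close to the threshold. Without rosiglitazone replicate 3, its highest array, the adjusted p was 0.0749 against obese, 0.0651 against resveratrol and 0.109 against lean control. It was 0.0619 without obese replicate 2, 0.0740 without obese replicate 4, and 0.0515 against resveratrol without resveratrol replicate 5. Against lean control the call was lost in 8 of the 10 fits that left out an array, all but those without lean control replicate 2 or rosiglitazone replicate 2. The difference itself stayed between 0.35 and 0.55 in all of these fits. With only the 2 groups compared the adjusted p was 0.0692 against obese, 0.0406 against resveratrol and 0.0752 against lean control, and with all rows it was 0.0705 against lean control.

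Stat3, which carries interleukin-6 family signals, showed a smaller difference of the same direction. Stat3 read 6.24, 6.16, 6.17, 6.09 and 6.28 in lean control and 6.18, 6.01, 6.24, 6.06 and 6.29 in obese muscle. It read 6.21, 6.14, 6.28, 6.10 and 6.22 with resveratrol and 6.26, 6.32, 6.61, 6.45 and 6.75 with rosiglitazone. Its rosiglitazone values spanned a wider range than those of the other groups, with replicates 2 to 5 above every array of the other groups and replicate 1 within their range. The log2 fold change against obese was 0.32 (SE 0.10, adjusted p = 0.101), which missed the threshold. It passed with trend and robust variance moderation (0.0445) and when only genes with a mean above 4 were tested (0.0272).

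Stat5a, a mediator of prolactin and growth hormone signals and dim here, paired the groups differently. Stat5a read 3.15, 3.19, 3.69, 2.69 and 3.32 in lean control and 3.68, 3.79, 3.72, 3.73 and 3.49 in obese muscle. It read 2.99, 2.96, 3.44, 3.50 and 3.28 with resveratrol and 3.86, 3.44, 3.96, 3.64 and 3.50 with rosiglitazone. Obese and rosiglitazone arrays lay in the same range, as did most lean control and resveratrol arrays, with overlap at the edges. Obese minus lean control was 0.48 (SE 0.15, adjusted p = 0.266), resveratrol minus obese -0.45 (adjusted p = 0.571) and rosiglitazone minus resveratrol 0.45 (adjusted p = 0.161), none of which passed. The neighbouring Stat5b had group means of 6.03 to 6.25. Stat2, which joins Irf9 in the complex activated by type I interferon, had group means of 3.90 to 4.18, and Stat4, the interleukin-12 factor, of 1.69 to 1.87.

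**Figure D2:**
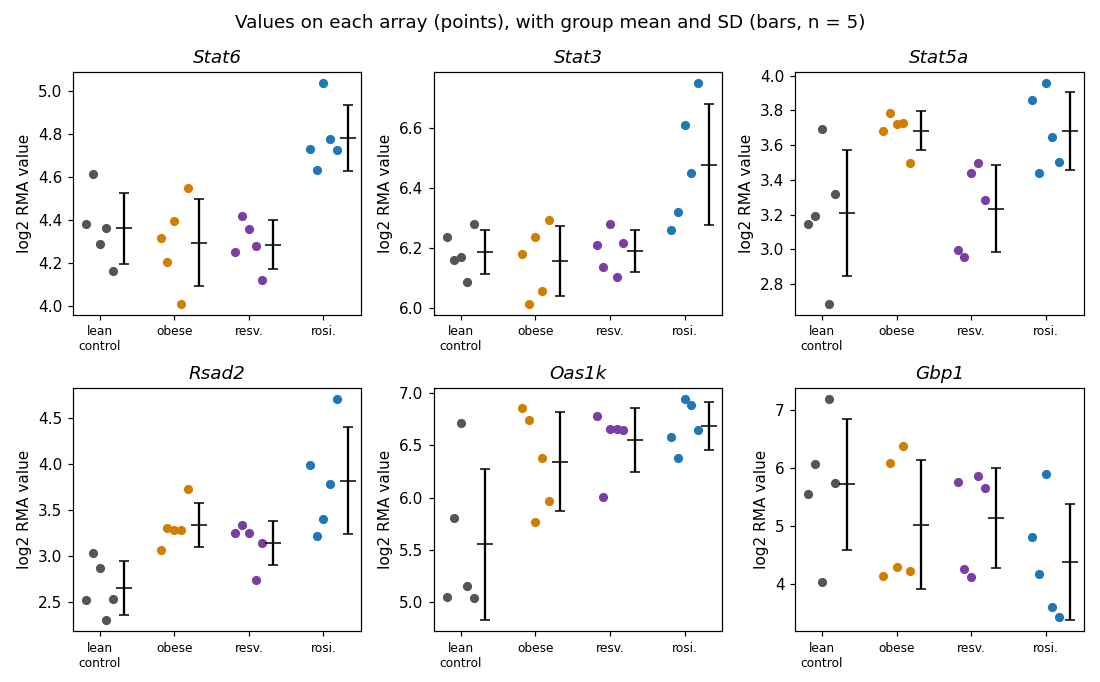
Log2 RMA values of 6 genes on each array (points) by group, with group mean and SD (bars, n = 5); resv. is resveratrol and rosi. rosiglitazone, and each panel has its own axis. The 5 rosiglitazone points of Stat6 lie above all others, the Rsad2 points of lean control lie below those of rosiglitazone and of obese, 4 of 5 Oas1k points of lean control lie at 5.81 or below, and Gbp1 runs from 3.44 to 7.18.

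None of the 7 interferon regulatory factors was called in any comparison. Irf3, the factor that is phosphorylated when nucleic acid is sensed, came closest with rosiglitazone. Irf3 read 4.44, 4.46, 4.44, 4.50 and 4.49 in lean control and 4.11, 4.10, 4.17, 4.54 and 4.65 in obese muscle. It read 4.35, 4.27, 4.62, 4.46 and 4.68 with resveratrol and 4.76, 4.69, 4.69, 4.60 and 4.49 with rosiglitazone. The 5 lean control values lay within a narrow band, whereas the obese values fell into 3 low arrays, replicates 1 to 3, and 2 above the lean control range. Rosiglitazone minus obese was 0.33 (SE 0.11, adjusted p = 0.161).

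Irf7, which drives the later wave of interferon production and is itself interferon-induced, was dim. Irf7 read 3.74, 4.05, 3.56, 2.95 and 3.21 in lean control and 3.04, 3.50, 3.21, 3.33 and 3.72 in obese muscle. It read 3.32, 3.35, 2.84, 3.06 and 3.12 with resveratrol and 3.70, 3.22, 2.40, 2.63 and 3.30 with rosiglitazone. The groups overlapped throughout, and the rosiglitazone arrays alone ran from the lowest of all 20 to 3.70. Its log2 fold change was -0.14 for obese against lean control (95% interval -0.59 to 0.31) and -0.31 for rosiglitazone against obese (-0.76 to 0.14).

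Irf9, the DNA-binding partner of Stat2, read 4.30, 4.15, 4.17, 4.16 and 4.68 in lean control and 4.11, 4.10, 4.11, 4.06 and 4.25 in obese muscle. Its values were 4.25, 3.98, 3.88, 3.88 and 3.88 with resveratrol and 4.02, 4.23, 3.77, 4.24 and 4.22 with rosiglitazone. The lean control mean rested in part on replicate 5, and 4 of 5 resveratrol arrays lay below every lean control and obese array. Resveratrol minus lean control was -0.32 (SE 0.12, adjusted p = 0.419), a difference that was not called. Group means of the other factors were 5.30 to 5.57 for Irf2, a repressor and competitor of Irf1, 2.54 to 2.87 for Irf4 and 3.02 to 3.23 for Irf8, both factors of immune cells, and 2.71 to 2.93 for Irf5. The IRF2-binding proteins had group means of 3.26 to 3.46 for Irf2bp1 and 4.38 to 4.73 for Irf2bpl.

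The 10 genes of the 2'-5' oligoadenylate synthetase family all lie on chromosome 12. Oas1k (row 17678186, chromosome 12, 41423100 to 41432330), one of the rat copies of Oas1, was the only one of them that was not dim. Oas1k read 5.05, 5.81, 6.72, 5.16 and 5.04 in lean control and 6.86, 6.74, 5.77, 6.38 and 5.97 in obese muscle. It read 6.78, 6.01, 6.66, 6.66 and 6.64 with resveratrol and 6.59, 6.38, 6.94, 6.89 and 6.65 with rosiglitazone. Lean control replicates 1, 4 and 5 lay below every other array, lean control replicate 3 lay in the upper part of the whole range, and the other 3 groups overlapped. The mean was 5.56 (SD 0.72, n = 5) in lean control, 6.34 (SD 0.47) in obese, 6.55 (SD 0.31) with resveratrol and 6.69 (SD 0.23) with rosiglitazone. Rosiglitazone minus lean control was 1.14 (SE 0.26, adjusted p = 0.0153), or 2.20-fold (95% interval 1.51 to 3.20). The differences of obese and of resveratrol from lean control were 0.79 (adjusted p = 0.280) and 0.995 (adjusted p = 0.235) and were not called, and rosiglitazone minus obese was 0.35 (95% interval -0.20 to 0.89).

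Single lean control arrays decided these calls. Without lean control replicate 1 the adjusted p of rosiglitazone against lean control was 0.0551 with a difference of 1.01, and without replicate 5 it was 0.0526 with 1.01. Without lean control replicate 3 the difference of resveratrol from lean control was 1.29 with an adjusted p of 0.0272. Other Oas1 copies lie near Oas1k on chromosome 12, and whether RNA of another copy bound these probes was not tested.

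Between rats of a group, Oas1k followed Fkbp5, a co-chaperone of the glucocorticoid receptor. After group means were subtracted, Pearson's r over the 20 arrays was 0.92, the highest among 4978 other genes with a mean above 4, and it lay between 0.88 and 0.94 when any array was left out. Next in size were Plat (0.86), which encodes tissue plasminogen activator, Zmiz1 (-0.84), Mast2 (0.84) and Slc44a2 (-0.84). These genes were found after the values had been seen, the arrays share their RMA processing, and the correlations are a description with no test. Fkbp5 read 6.06, 7.33, 7.79, 5.995 and 5.67 in lean control and 7.93, 7.66, 6.74, 7.70 and 7.20 in obese muscle. It read 8.14, 7.04, 7.62, 7.61 and 7.68 with resveratrol and 8.05, 7.44, 7.97, 7.86 and 7.59 with rosiglitazone, so that lean control replicates 1, 4 and 5 were the lowest arrays for both genes and replicate 3 the highest of lean control. Fkbp5 differed between rosiglitazone and lean control by 1.21 (SE 0.31, adjusted p = 0.0317), and Plat by 1.22 (SE 0.21, adjusted p = 0.00117). Obese minus lean control was 0.875 for Fkbp5 (adjusted p = 0.298) and 0.507 for Plat (adjusted p = 0.379). Rosiglitazone minus obese was 0.335 for Fkbp5 (adjusted p = 0.713) and 0.708 for Plat (adjusted p = 0.0834), and none of these was called.

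**Figure D3:**
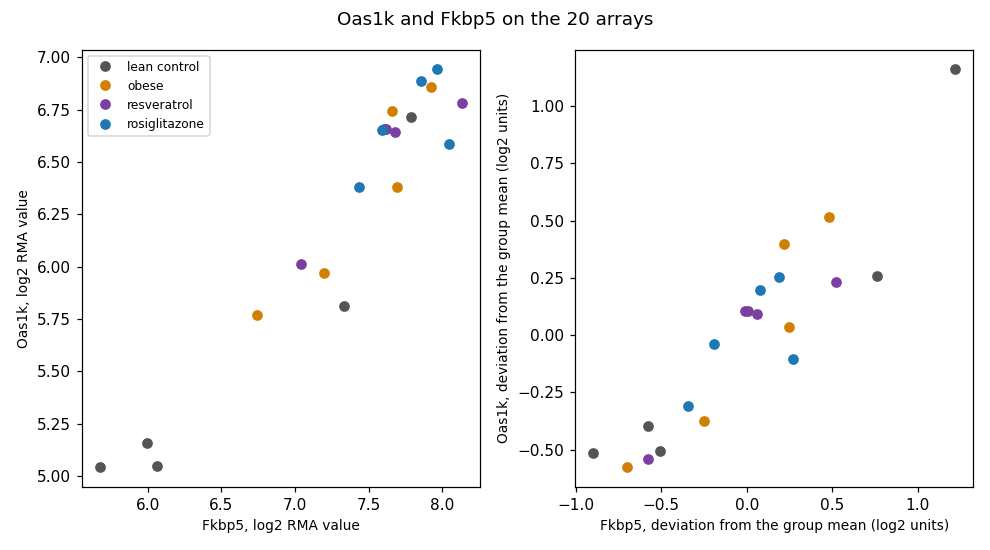
Oas1k against Fkbp5 on the 20 arrays, coloured by group, as log2 RMA values (left) and as deviations from the group mean in log2 units (right). The points follow a rising line in both panels, with r = 0.96 on the left and 0.92 on the right.

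The other 9 genes of the family were dim, and none was called. Oas1b, whose intact form protects mice from flaviviruses, read 2.17, 2.99, 2.34, 2.81 and 2.57 in lean control and 1.96, 2.21, 1.91, 2.65 and 2.66 in obese muscle. Its values were 2.38, 1.97, 2.03, 1.43 and 1.66 with resveratrol and 2.34, 2.30, 1.78, 1.88 and 2.20 with rosiglitazone. Most lean control arrays lay above most resveratrol arrays, with overlap at lean control replicates 1 and 3, and resveratrol minus lean control was -0.68 (SE 0.19, adjusted p = 0.294).

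Oas1e read 1.34, 1.60, 1.51, 1.56 and 1.24 in lean control and 1.23, 1.66, 1.23, 1.12 and 1.67 in obese muscle. It read 1.69, 1.67, 2.15, 1.65 and 2.04 with resveratrol and 1.34, 1.20, 1.97, 1.48 and 1.45 with rosiglitazone. All 5 resveratrol values of this copy lay above the lean control range, and obese replicates 2 and 5 reached the lower edge of the resveratrol range. Resveratrol minus obese was 0.46 (SE 0.15, adjusted p = 0.563). Oas1f read 1.40, 1.71, 1.69, 1.85 and 2.21 in lean control and 1.41, 1.31, 1.37, 1.55 and 1.32 in obese muscle. It read 2.13, 1.87, 1.62, 1.67 and 1.84 with resveratrol and 1.61, 1.46, 1.79, 1.38 and 1.28 with rosiglitazone. Here all 5 resveratrol values lay above the obese range, and resveratrol minus obese was 0.43 (SE 0.13, adjusted p = 0.559). Every array lay below its array's median for both genes. The same held for Oas1d, Oas2 and Oasl, with group means of 1.37 to 1.78, 1.87 to 2.01 and 1.36 to 1.67. For Oas1h, Oas1i and Oasl2 the group means were 1.46 to 1.93, 2.20 to 2.36 and 2.09 to 2.44.

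Of the 7 GTPases, Gbp1 (row 17751717, chromosome 2, 234071366 to 234106012), an interferon-gamma-induced protein that acts against intracellular pathogens, varied most between rats. It was described after its values had been seen. Gbp1 read 5.55, 6.07, 4.05, 7.18 and 5.74 in lean control and 4.13, 6.08, 4.29, 6.37 and 4.22 in obese muscle. It read 5.76, 4.27, 4.13, 5.86 and 5.66 with resveratrol and 4.81, 4.17, 5.90, 3.61 and 3.44 with rosiglitazone. High and low arrays occurred in every group, and the highest array was 13.3-fold above the lowest. The SD between rats within groups was 1.03, against a median of 0.18 over the 4979 genes with a mean above 4, among which Gbp1 ranked 5. Group means were 5.72 (SD 1.13, n = 5) in lean control, 5.02 (SD 1.11) in obese, 5.13 (SD 0.86) with resveratrol and 4.39 (SD 1.0) with rosiglitazone. At this spread, rosiglitazone minus lean control of -1.33 (SE 0.56, adjusted p = 0.223) was not called, nor was rosiglitazone minus obese of -0.64 (95% interval -1.79 to 0.52).

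The other guanylate-binding genes on chromosome 2 had a within-group r with Gbp1 of -0.08 for Gbp3, -0.20 for Gbp5 and 0.12 for Gbp7. Among the members that were not dim, Ifi44, an interferon-induced protein, was the most like Gbp1 (r = 0.71). Mx1, a GTPase that blocks orthomyxoviruses, lay below the median of every array. Mx1 read 2.22, 1.66, 1.79, 1.51 and 1.59 in lean control and 1.51, 1.71, 1.999, 2.23 and 1.98 in obese muscle. It read 1.61, 1.76, 1.70, 2.03 and 1.70 with resveratrol and 2.07, 1.82, 2.06, 2.15 and 1.63 with rosiglitazone. The groups overlapped, and rosiglitazone minus obese was 0.06 (95% interval -0.24 to 0.36). Group means were 1.17 to 1.39 for Gbp3, 3.11 to 3.42 for Gbp5, 1.67 to 1.96 for Gbp6, 2.69 to 3.15 for Gbp7 and 3.28 to 3.56 for Ifi47, a GTPase of the immunity-related family.

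**Figure D4:**
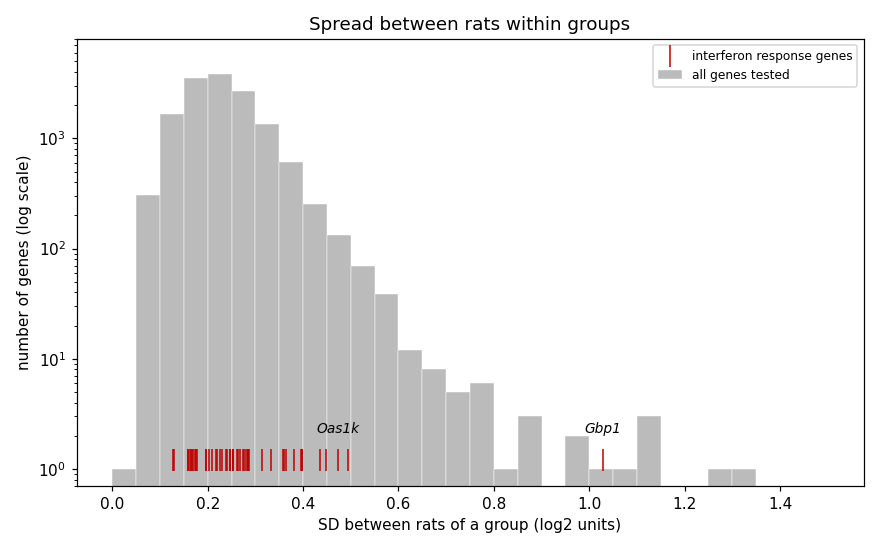
SD between rats of a group, pooled over the 4 groups, in log2 units, for all 14557 genes (grey histogram, log count axis) and for the 50 interferon response genes (red ticks). The median was 0.25 for the 50 and 0.22 for all genes; Gbp1 stands apart at 1.03.

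Among the 5 antiviral effectors, Rsad2 (row 17821293, chromosome 6, 48774985 to 48788245), which encodes viperin, an enzyme that makes a chain-terminating nucleotide, was higher with rosiglitazone than in lean control muscle. Rsad2 read 2.53, 3.04, 2.88, 2.31 and 2.54 in lean control and 3.07, 3.31, 3.28, 3.29 and 3.73 in obese muscle. It read 3.25, 3.34, 3.25, 2.74 and 3.15 with resveratrol and 3.99, 3.22, 3.40, 3.78 and 4.70 with rosiglitazone. Each lean control value lay below each obese and each rosiglitazone value, and rosiglitazone replicate 5 was the highest of all arrays. The mean was 2.66 (SD 0.29, n = 5) in lean control, 3.33 (SD 0.24) in obese, 3.15 (SD 0.24) with resveratrol and 3.82 (SD 0.58) with rosiglitazone. Rosiglitazone minus lean control was 1.16 (SE 0.21, adjusted p = 0.00187), or 2.24-fold (95% interval 1.66 to 3.01), and it stayed called in each fit that left out an array, with a highest adjusted p of 0.00822. Obese minus lean control was 0.68 (adjusted p = 0.240), rosiglitazone minus obese 0.49 (adjusted p = 0.294) and rosiglitazone minus resveratrol 0.67 (adjusted p = 0.110), none of which was called, although the last reached 0.0435 without rosiglitazone replicate 2.

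Rsad2 was dim by the rule used here, with 1 array below its array's median. Cmpk2, the gene next to Rsad2 on chromosome 6 and itself interferon-stimulated, averaged 3.58 with rosiglitazone and 3.69 in lean control muscle, a difference of -0.10 (SE 0.14, adjusted p = 0.808). Among 4979 genes with a mean above 4, those with the largest within-group r with Rsad2 were Car2 (0.81), a carbonic anhydrase, Ybx3 (0.80) and Sfmbt1 (-0.80). With group differences kept, r was 0.40, 0.86 and -0.05. These correlations carry no test, and how far they rest on rosiglitazone replicate 5 was not tested.

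The Ifit proteins bind foreign RNA, and neither of those measured was called. Ifit2 read 5.66, 5.19, 5.24, 5.09 and 5.36 in lean control and 4.90, 5.30, 4.81, 5.03 and 5.74 in obese muscle. It read 4.94, 5.17, 4.90, 5.33 and 5.47 with resveratrol and 5.12, 4.86, 4.98, 5.03 and 4.999 with rosiglitazone. The values overlapped between all groups, and those with rosiglitazone spanned the narrowest range. Rosiglitazone minus lean control was -0.31 (95% interval -0.63 to 0.01, adjusted p = 0.330). Ifit3 read 2.65, 2.78, 2.55, 2.47 and 2.32 in lean control and 2.51, 2.02, 2.34, 2.54 and 2.59 in obese muscle. It read 2.49, 2.40, 2.60, 3.03 and 2.40 with resveratrol and 2.82, 2.66, 2.86, 2.76 and 2.38 with rosiglitazone. This gene was dim, its groups overlapped, and rosiglitazone minus obese was 0.30 (adjusted p = 0.338). Ifih1, the double-stranded RNA sensor MDA5, had group means of 3.53 to 3.80, and Isg20, an RNA exonuclease, of 3.32 to 3.43.

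The ubiquitin-like protein Isg15 and Usp18, the protease that removes it and also damps the type I receptor, were both dim. Isg15 read 1.88, 1.72, 1.64, 1.83 and 1.80 in lean control and 2.22, 1.64, 1.55, 1.55 and 1.81 in obese muscle. It read 1.68, 1.70, 1.69, 1.93 and 1.80 with resveratrol and 1.58, 1.74, 1.90, 1.50 and 1.81 with rosiglitazone. No group stood apart, every value lay below its array's median, and rosiglitazone minus obese was -0.05 (95% interval -0.29 to 0.20). Usp18 read 2.37, 2.67, 2.12, 1.89 and 2.61 in lean control and 1.96, 2.26, 1.62, 1.83 and 2.79 in obese muscle. It read 1.85, 1.88, 1.90, 1.59 and 1.85 with resveratrol and 2.31, 2.10, 1.19, 1.84 and 1.69 with rosiglitazone. The means were 2.33 (SD 0.33) in lean control and 2.09 (SD 0.45) in obese muscle against 1.81 (SD 0.13) with resveratrol and 1.83 (SD 0.43) with rosiglitazone, with overlap between all groups. Resveratrol minus lean control was -0.52 (adjusted p = 0.448), and rosiglitazone minus lean control -0.50 (adjusted p = 0.211).

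Ifi27, an interferon-induced protein of mitochondrial and nuclear membranes, was picked for its small p between the 2 treatments and was not called. Ifi27 read 7.84, 8.22, 8.10, 8.02 and 8.17 in lean control and 7.85, 7.88, 8.17, 7.81 and 8.49 in obese muscle. It read 7.94, 7.77, 7.75, 7.92 and 7.72 with resveratrol and 8.41, 8.12, 8.06, 8.03 and 8.45 with rosiglitazone. All 5 rosiglitazone values lay above all 5 resveratrol values, while lean control and obese values overlapped both. Because the gene was picked for its p in this comparison, this lack of overlap is no separate support. Rosiglitazone minus resveratrol was 0.39 (SE 0.13, adjusted p = 0.128), and the adjusted p was 0.04996 with trend and robust variance moderation and 0.0462 among genes with a mean above 4.

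Group means of the remaining interferon-induced names were 3.15 to 3.52 for Ifi27l2b, 3.59 to 4.05 for Ifi30, a lysosomal thiol reductase of antigen processing, 2.48 to 2.68 for Ifi35, 3.68 to 4.11 for Ifi44 and 3.57 to 4.09 for Isg20l2. For Isg20l2, a nuclease that entered by its letters, 1 array decided the lowest mean: resveratrol replicate 2 read 2.42, and the other 4 arrays of that group lay between 3.54 and 3.98. Ifi30 averaged 3.59 (SD 0.38) with rosiglitazone and 4.05 (SD 0.11) in lean control muscle, a difference of -0.46 (adjusted p = 0.108). The transmembrane proteins, which block virus entry, had group means of 2.36 to 2.67 for Ifitm1, 3.93 to 4.15 for Ifitm2, 3.07 to 3.43 for Ifitm3, 2.85 to 3.27 for Ifitm7 and 2.98 to 3.35 for Ifitm2-ps2. None of the 5 transmembrane names or the 6 of the group of Ifi27 was called in any comparison.

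**Figure D5:**
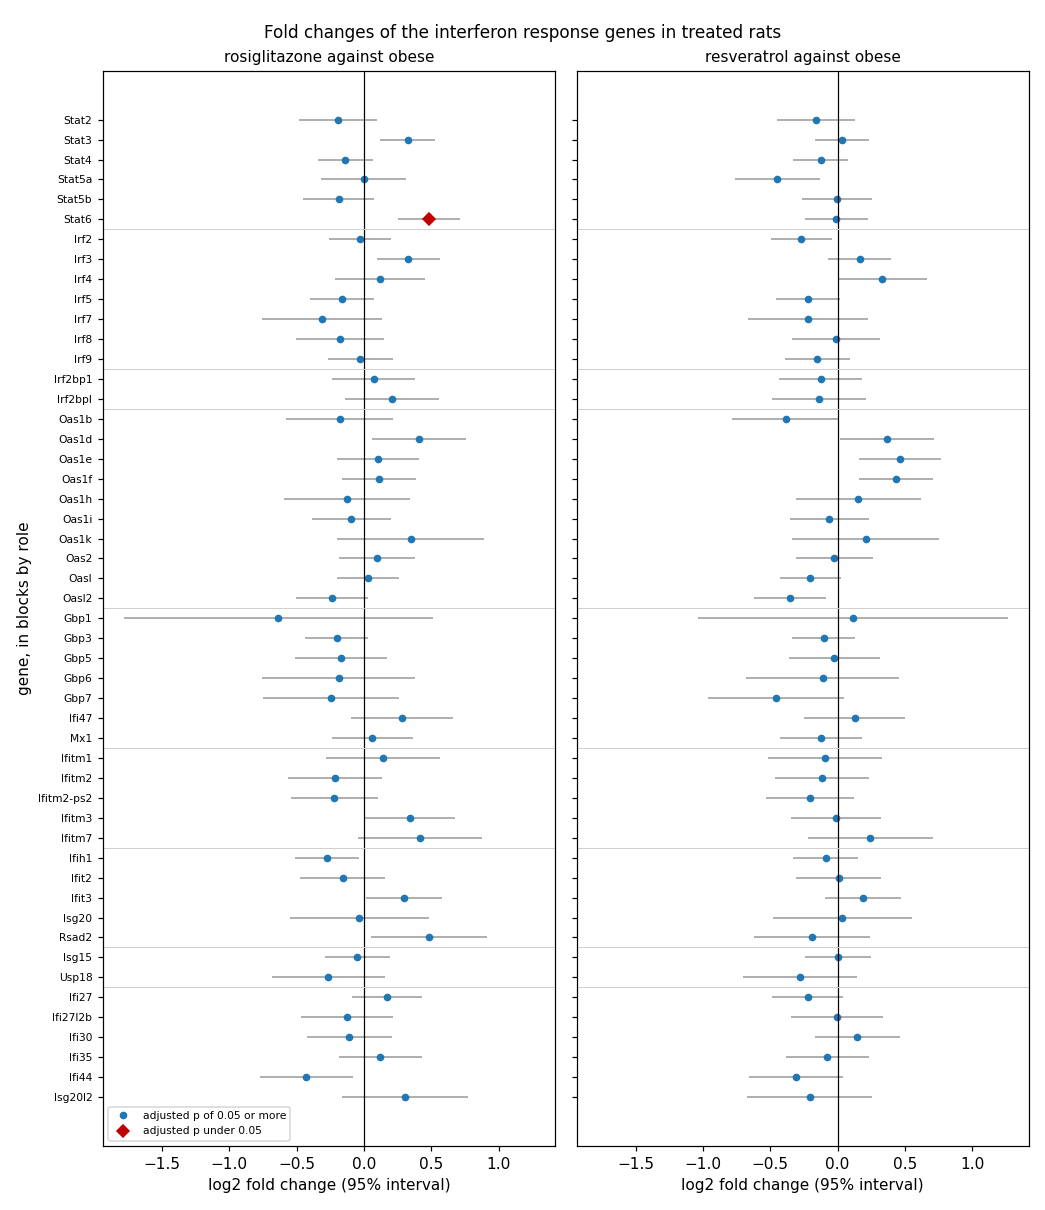
Log2 fold change with its 95% interval for each of the 50 genes, in blocks by role, for rosiglitazone against obese (left) and resveratrol against obese (right), which share the obese arrays. Stat6 on the left is the 1 gene with an adjusted p under 0.05 (red diamond); the estimates lie on both sides of 0, and the interval of Gbp1 is the widest.

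Within groups, correlations between these genes were mostly low. Over the 120 pairs of the 16 genes that were not dim, within-group r over 20 arrays had a median of 0.08 and ran from -0.37 to 0.71, and the median r of a gene with the mean of the others was 0.15. The pairs with the highest r after Gbp1 with Ifi44 were Ifi30 with Irf2bpl (0.67), Ifi30 with Stat3 (0.65) and Irf3 with Stat2 (0.63). The arrays share their RMA processing, and these values carry no test.

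Other genes of the pathway were read from lists. With rosiglitazone against obese, where 1.94% of all genes were called, 1 of 10 measured interferon ligands and receptors was called, Il10rb, a receptor chain shared by type III interferons and interleukin-10, which rose by 0.50 (adjusted p = 0.00746). The receptor chains Ifnar1 and Ifngr1 differed by 0.27 (adjusted p = 0.237) and 0.17 (adjusted p = 0.456). None of 11 JAK kinases and inhibitors was called in any comparison. Of 12 nucleic acid sensors and adaptors, Myd88, the adaptor of most Toll-like receptors, rose by 0.64 (adjusted p = 0.0202).

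Of 26 further interferon-stimulated genes, 2 rose with rosiglitazone against obese and none fell, where 1.46% of all genes rose and 0.474% fell. Tnfsf10, the death ligand TRAIL, rose by 1.72 (SE 0.22, adjusted p = 4.25e-05), from a mean of 4.30 to 6.02, and Sp100, a nuclear body protein, rose by 0.65 (adjusted p = 0.0208). In antigen presentation 1 of 20 was called, B2m, the light chain of class I molecules, which rose by 0.63 (adjusted p = 0.00318). The list medians were 0.02 for ligands and receptors, 0.09 for JAK kinases and inhibitors, 0.10 for sensors, 0.09 for further interferon-stimulated genes and 0.16 for antigen presentation, beside -0.0048 over all genes.

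Against resveratrol, 1.44% of all genes were called higher with rosiglitazone. Of the 26 further interferon-stimulated genes 3 were, Sp100, Tnfsf10 and the chemokine Cxcl9 (0.78, adjusted p = 0.00689). In antigen presentation 2 of 20 were, B2m and RT1-S3, a rat class I gene (0.79, adjusted p = 0.0214). Against lean control, where 1.67% of all genes were higher and 1.83% lower, 2 of the 26 were higher, Sp100 and Tnfsf10. Of the 12 sensors and adaptors 1 was higher, Myd88, and 2 were lower. These were Tlr3, a sensor of double-stranded RNA, by 0.79 (adjusted p = 0.00185) and Traf3, an adaptor upstream of Irf3, by 0.72 (adjusted p = 0.00664). No gene of these 5 lists was called for obese against lean control (0.00687% of all genes), resveratrol against obese (0%) or resveratrol against lean control (0.0137%). With so few calls among all genes, their absence says little about these lists.

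Levels of markers for other cell types also differed with rosiglitazone. Adipocyte markers, of which 5 of 6 rose against obese (1.46% of all genes), summed to an unlogged signal of 1000 to 1117 on rosiglitazone arrays, against 333 to 476 on obese, 354 to 513 on resveratrol and 258 to 397 on lean control arrays. Endothelial markers, of which 3 of 6 rose against obese, summed to 358 to 413 against 317 to 372 on obese arrays. Fibroblast markers summed to 295 to 435 with rosiglitazone, 427 to 662 in obese and 677 to 801 in lean control muscle. With rosiglitazone against lean control, 5 of 5 were lower (1.83% of all genes). Slc4a1, the 1 erythroid marker measured and dim, was higher with rosiglitazone than in lean control muscle by 1.06 (SE 0.24, adjusted p = 0.0126). None of 14 macrophage and leukocyte markers was called in any comparison. Their sum was 115 to 165 with rosiglitazone, 92.1 to 117 in obese muscle, 106 to 136 with resveratrol and 102 to 143 in lean control muscle, with overlap between all groups. Among 8 skeletal muscle markers none was called. The part of these markers in the differences of Stat6, Rsad2 and Oas1k was not tested.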

How the data were processed

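The authors processed the 20 arrays (Affymetrix Rat Gene 2.1 ST) with RMA, which corrects background, normalises arrays to a common distribution and summarises probes. The deposited log2 values were used as they are, so differences in total RNA between arrays are not visible, and the number of arrays limits the precision. Of 36685 rows, 14824 carried 1 gene symbol, and rows with several (829) or none (21032) were left out. The brightest row was kept for each of 234 genes with more than 1 row. Group means were fitted with limma 3.58.1 (R 4.3.3), two-sided, with 16 residual and 6.35 prior degrees of freedom, and Benjamini-Hochberg adjustment was made over 14557 genes in each of 6 comparisons. The script was tested on simulated data. No batch, strip layout or date is given in the sources used here, and arrays of 1 group are titled biological replicates.

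The genes, the lists and the motifs were chosen with earlier results of these data known. Values on every array are given for genes called in any comparison, for the 3 smallest p values in each, and for Irf7, Irf9, Isg15, Mx1, Ifit2, Ifit3, Usp18 and Rsad2. Gbp1, Isg20l2 and the genes set beside Oas1k, Rsad2 and Gbp1 for their pattern were chosen after their values were seen. All 50 genes were matched to RefSeq by gene ID. Alternatives were a replicate block, other variance moderation, other gene filters, array weights, median centring, only the groups compared, and leaving out each array. Python 3.11.15 with pandas 2.3.3 and matplotlib 3.10.9 was used for motifs and plots.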

Additional observations from a re-analysis of the deposited data

Results flagged for a closer look

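In the 68 groups of 5 arrays of the 17 genes chosen by the stated rule, 4 arrays lay far from the rest of their group by Dixon's criterion, which chance alone meets in about 1 of 20 groups. Irf9 read 4.68 in lean control replicate 5, with the next array at 4.30. Irf9 also read 4.25 in obese replicate 5, with the next at 4.11, a small gap in a group of narrow range. Oas1k read 6.01 in resveratrol replicate 2, with the next at 6.64. Usp18 read 1.59 in resveratrol replicate 4, with the next at 1.85, for a dim gene. Isg20l2 read 2.42 in resveratrol replicate 2, with the next at 3.54; this gene was chosen after its values were seen and is not among the 4.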

How the results depend on the processing

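Of 316 recomputed differences for 18 pairs of a gene and a comparison, 291 kept their direction and side of the threshold, 19 lost the call, 6 gained it and none reversed. The number of genes called for rosiglitazone against obese was 1 and became 2 with trend and robust moderation, 2 among genes with a mean above 4 (Stat6 and Stat3), 0 when only the 2 groups compared were fitted, and 0 to 2 when an array was left out. For rosiglitazone against resveratrol it was 1 and became 2 with trend and robust moderation, 3 among genes with a mean above 4 (Stat6, Stat3 and Ifi27), and 0 to 2 when an array was left out. For rosiglitazone against lean control, 3 became 1 to 4 when an array was left out, with 1 without lean control replicate 1 or 5. There Stat6 also lost its call with all rows (adjusted p = 0.0705) and with only the 2 groups compared (0.0752), which left 2 genes called in each. For resveratrol against lean control 0 became 0 to 1 when an array was left out. For obese against lean control and resveratrol against obese the count was 0 in all 18 alternatives. The cause was not tested, except that a smaller set of genes or arrays is part of those settings.

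The replicate numbers did not pair the arrays, with correlations of same-numbered arrays between -0.17 and 0.07. With the replicate block, Stat6 lost its call against lean control (adjusted p = 0.0655), which left 2 genes called there, and the other counts were 0, 1, 0, 1 and 0 as without it. Arrays give no count of molecules, and for the 9 genes below the median of every array a change could go unmeasured.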
